A study of Mus musculus with 18 samples.

Results

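The 30 genes described here encode the enzymes and regulators with which a cell makes cholesterol and fatty acids. They were taken by symbol from a table of 55450 genes, and all 30 were present and expressed. By role they comprised 5 regulators of lipid synthesis, 8 enzymes from acetyl-CoA to the isoprenoid diphosphates, 11 enzymes from squalene formation to cholesterol, 1 sterol carrier and 5 enzymes of fatty acid synthesis and desaturation. Other genes of the same system are given further on.

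The cells were P19, a mouse embryonic carcinoma line derived from a teratocarcinoma, and each value is the polyadenylated mRNA level of a gene in untreated cells. Wild-type (WT) cells carried the genotype Dicer (+/+). In HetKO cells, Dicer (+/-), CRISPR had left 1 allele of Dicer1, the gene of the enzyme that cuts microRNA precursors, with a frameshift and a truncated, inactive product, and the line is clonal. In HM cells, Dicer (HM/-), the allele left in that HetKO clone was changed to carry the RNase IIIb hotspot mutation of DICER1 syndrome, so HM and HetKO share the knockout allele and differ in the hotspot and in the later cloning. Each line was sampled 6 times. Since each genotype comes as a single line, an effect of Dicer1 and of any other change fixed during cloning cannot be told apart, and nothing in the labels says that the 6 samples of a line were separate cultures. The p-values therefore measure the spread between these samples, which may be technical.

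Cholesterol is built from acetyl-CoA through mevalonate and the isoprenoid diphosphates to squalene, which is closed into lanosterol and then trimmed and reduced to cholesterol. The genes for these steps share a control circuit. When sterols are scarce, Scap escorts the SREBP transcription factors, encoded by Srebf1 and Srebf2, from the endoplasmic reticulum to the Golgi, where proteases release the active factor. When sterols are plentiful, the Insig proteins hold Scap back. SREBP-2 acts mainly on cholesterol genes and SREBP-1 mainly on fatty acid genes, and proliferating embryonic cells draw on both routes for membranes.

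The promoters of 6 members are shown, chosen after the fits for their differences between lines. Srebf2, Insig1 and Cyp51 were lower in HM than in WT, Hsd17b7 and Fasn were higher, and Hmgcs1 differed between all 3 lines. Each run is 150 bases long, reads 5′ to 3′ on the gene's strand, comes from RefSeq (GRCm38.p6), and stops just before the RefSeq start or the GENCODE M21 start, whichever lies further upstream. Capitals mark matches on either strand to a sterol regulatory element core (TCACNCCAC), an E-box (CACGTG), a GC box (GGGCGG) or a CCAAT box, whose name spells the letters searched.
Srebf2, chr15:82147031-82147180, plus strand: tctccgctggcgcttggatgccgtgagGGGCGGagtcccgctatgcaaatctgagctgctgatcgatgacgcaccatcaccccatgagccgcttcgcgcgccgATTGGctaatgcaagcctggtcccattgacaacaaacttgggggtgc
Insig1, chr5:28071213-28071362, plus strand: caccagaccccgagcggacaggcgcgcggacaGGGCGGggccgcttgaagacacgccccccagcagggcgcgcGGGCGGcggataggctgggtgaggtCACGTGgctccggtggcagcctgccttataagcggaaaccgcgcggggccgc
Cyp51, chr5:4104747-4104896, minus strand: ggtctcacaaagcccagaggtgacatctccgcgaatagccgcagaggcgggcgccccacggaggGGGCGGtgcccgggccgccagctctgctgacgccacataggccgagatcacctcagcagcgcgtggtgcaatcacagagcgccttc
Hmgcs1, chr13:119690201-119690350, plus strand: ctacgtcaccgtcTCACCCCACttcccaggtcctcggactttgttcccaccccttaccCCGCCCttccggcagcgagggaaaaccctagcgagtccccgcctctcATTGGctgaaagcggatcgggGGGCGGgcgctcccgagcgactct
Hsd17b7, chr1:169969242-169969391, minus strand: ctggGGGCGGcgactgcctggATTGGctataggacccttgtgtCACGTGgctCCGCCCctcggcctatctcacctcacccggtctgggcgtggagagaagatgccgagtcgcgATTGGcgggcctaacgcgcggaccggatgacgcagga
Fasn, chr11:120824548-120824697, minus strand: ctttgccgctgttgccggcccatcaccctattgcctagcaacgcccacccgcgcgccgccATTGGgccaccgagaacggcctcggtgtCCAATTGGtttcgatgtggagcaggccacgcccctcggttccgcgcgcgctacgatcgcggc

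Of the 30 members, 24 had a RefSeq promoter entry, covering 250 bases before to 50 after the start. Fdft1, Fdps, Sqle, Stard4, Scd1 and Scd2 had none. Srebf1, Scap, Insig2, Pmvk and Dhcr7 had several entries, as did 2066 of the 9833 tested genes with a promoter, and the entry nearest the GENCODE start was used for each gene. A CCAAT box, the element bound by NF-Y, was present in 20 of the 24 members' promoters (83.3%) and in 40% of those of the tested genes. A GC box, the element bound by Sp1, was present in 18 members (75%) and in 67.5% of tested genes, and 15 members (62.5%) against 26.4% of tested genes held both. The sterol regulatory element core was present only in the Hmgcs1 promoter among the 24 (4.17%, against 1.1% of tested genes), where it reads TCACCCCAC at positions -137 to -129 from the RefSeq start. Only this core was searched, so elements that differ from it in a letter were not counted, and the other promoters may hold such variants. An E-box was present in Scap, Insig1, Hsd17b7 and Sc5d (16.7%, against 10.5%). Hsd17b7, which was higher in HM, and Insig1, which was lower, each had an E-box, a CCAAT box and GC boxes in the whole window. These matches describe letters in the window, and no binding was measured. Fasn had 3 CCAAT boxes and no GC box in the window, and a pair of its CCAAT boxes overlap on opposite strands in the run CCAATTGG.

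Dicer1 mRNA, the check of the labels, had a mean of 52.3 ± 2.09 TPM (SD, n = 6) in WT, 48 ± 4.1 in HetKO and 40.3 ± 3.18 in HM. It was lower in HM than in WT (log2 fold change -0.37 ± 0.06, standard error, adjusted p = 0.000251 from limma). It did not pass in HetKO vs WT (-0.12 ± 0.06, adjusted p = 0.207) and was lower in HM than in HetKO (-0.25 ± 0.07, adjusted p = 0.0216). By RT-qPCR the study reported Dicer mRNA as reduced in both HetKO and HM, and as comparable between them. The mRNA level reports neither the hotspot nor the frameshift itself. The 10 markers of embryonic carcinoma cells summed to 3280 to 3694 TPM in WT, 3198 to 4006 in HetKO and 3692 to 4248 in HM. Pou5f1, the most abundant of them, averaged 2088, 2095 and 2040 TPM, but 6 of the 10 passed in HM vs WT. Sox2 (0.66), Lin28a (0.27), Utf1 (0.81) and L1td1 (1.12) were higher in HM on the log2 scale, and Nanog (-1.24) and Sall4 (-1.83) were lower. In HetKO vs WT 5 of the 10 passed and in HM vs HetKO 6. Over all genes 51.4% passed in HM vs WT, 10.2% in HetKO vs WT and 34.6% in HM vs HetKO. The part of these markers in the results on lipid genes was not tested. Afp, Alb and Ttr of liver and Pparg, Adipoq and Plin1 of fat were below 1 TPM in every sample. The 7 endoderm and liver markers summed to 2.02 to 4.28 TPM in WT, 1.24 to 2.67 in HetKO and 1 to 2.13 in HM, and the 6 adipocyte markers to 20.8 to 32.5, 19.2 to 30.9 and 13.4 to 24.5 TPM. Most of the adipocyte sum was Lpl, a lipase, at means of 23.5 TPM in WT and 15.2 in HM, and it was lower in HM than in WT (-0.64, adjusted p = 0.0118). Neural markers summed to at most 71.9 TPM, fibroblast markers to at most 39.7 TPM and mesoderm and muscle markers to at most 17.2 TPM in any sample.

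Samples within a line came in pairs that resembled each other. Over the 6164 genes that averaged 20 TPM or more, the median absolute log2 difference between 2 samples was 0.061 to 0.0716 for WT replicates 1 and 4, 2 and 5, and 3 and 6, and 0.0763 to 0.179 for the 12 other WT pairs. The same pairs of HetKO differed by 0.0565 to 0.0733, where the other pairs of that line differed by 0.139 to 0.263. In HM the alike pairs were 1 and 4, 2 and 3, and 5 and 6, at 0.0644 to 0.112 against 0.148 to 0.218. Over the 30 members, alike pairs differed by 0.0442 to 0.0615 in WT, 0.0648 to 0.155 in HetKO and 0.0607 to 0.1 in HM, and the other pairs of the same line by 0.0927 to 0.387, 0.163 to 0.561 and 0.184 to 0.371. If the alike pairs are repeat libraries of a culture, each line holds 3 independent samples rather than 6, so the main counts are given beside counts from the means of the pairs.

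The members were abundant transcripts. TPM, a share of all transcripts, is scaled per transcript length, so levels can be set side by side between genes, but it keeps no read depth, and the depth behind each value is unknown. In a culture sampled in bulk, fewer cells that express a gene and less of its RNA per cell cannot be told apart. In WT the highest means were those of Scd2 (383 ± 36.4 TPM), Fdps (351 ± 39.3), Fasn (240 ± 28.2) and Acly (231 ± 16.9). The lowest were those of Hsd17b7 (6.18 ± 0.936 TPM), Scap (14.8 ± 0.916) and Ebp (19 ± 2.07). Every other member had a WT mean between 22.3 TPM, for Insig2, and 183 TPM, for Srebf2. A fatty acid desaturase and the maker of farnesyl diphosphate thus headed the list, and the escort of SREBP stood near its foot.

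In HM compared with WT, the comparison of the hotspot line with the unmodified line, 13 of the 30 members passed an adjusted p of 0.05 (43.3%) in limma, fitted to log2(TPM + 1) with Benjamini-Hochberg adjustment over all genes tested, 3 of them higher and 10 lower. The 10 that fell were Srebf1, Srebf2 and Insig1 among the regulators, Fdft1, Lss, Cyp51, Tm7sf2, Msmo1 and Dhcr7 along the squalene to cholesterol route, and the desaturase Scd1. Hmgcs1, Hsd17b7 and Fasn rose. Over all 14043 genes tested, 7220 passed (51.4%), with 19.4% of genes higher and 32% lower in HM, so the share of members that passed was below that of all genes and the direction was the common one. The members' median log2 fold change was -0.13 and that of all genes -0.09. Of the 30 members, 5 had HM values that did not overlap those of WT: Srebf1, Srebf2, Cyp51, Hsd17b7 and Fasn. Over all tested genes 28.5% did not overlap, 10.6% higher and 18% lower in HM, so the members' count was below the background.

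The scale bore on the direction. When each sample was centred on its median, the median of all genes moved from -0.09 to 0.08, the calls over all genes went from 37.7% to 61% higher (51.1% after quantile normalization), and the members called became 7 higher and 7 lower, with Nsdhl, Sc5d, Acly and Acaca added on the higher side and Fdft1, Dhcr7 and Scd1 no longer passing. Quantile normalization gave 3 higher and 10 lower. When each alike pair was replaced by its mean, 6 of the 30 members passed: Srebf1, Srebf2, Insig1, Cyp51, Hsd17b7 and Fasn. Over all genes, 3414 of 14043 passed with pair means.

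HetKO compared with WT sets the clone that lost 1 Dicer1 allele beside the unmodified line. There 2 of the 30 members passed (6.67%): Hmgcs1 fell and Ebp rose. Over all 13999 genes tested, 10.2% passed, 3.71% higher and 6.44% lower. Both members had HetKO samples that did not overlap those of WT, as did 8.21% of all genes (3.07% higher and 5.14% lower). The members' median was -0.08 and that of all genes -0.03. With the means of alike pairs no member passed in limma (0 of 30, 2 at an unadjusted p under 0.05), and with an unequal-variance test 1 passed, Ebp. Over all genes, pair means called 35 of 13999.

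HM compared with HetKO is the direct test of whether the hotspot line differs from the line it was made from. There 10 of 30 members passed (33.3%), 4 higher (Hmgcs1, Nsdhl, Hsd17b7 and Fasn) and 6 lower (Srebf1, Cyp51, Tm7sf2, Ebp, Scd1 and Scd2). Over all 13762 genes tested, 34.6% passed, 14% higher and 20.6% lower, so again the members' share was near the background. The samples of the 2 lines did not overlap for Hmgcs1, Hsd17b7 and Tm7sf2, and for 15.5% of all genes (6.23% higher and 9.27% lower in HM). The members' median was -0.06 and that of all genes -0.05. With the means of alike pairs 1 member passed, Hmgcs1, beside 454 of all 13762 genes. The comparisons share samples, so a gene's HM values enter both the first and the third.

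**Figure D1:**
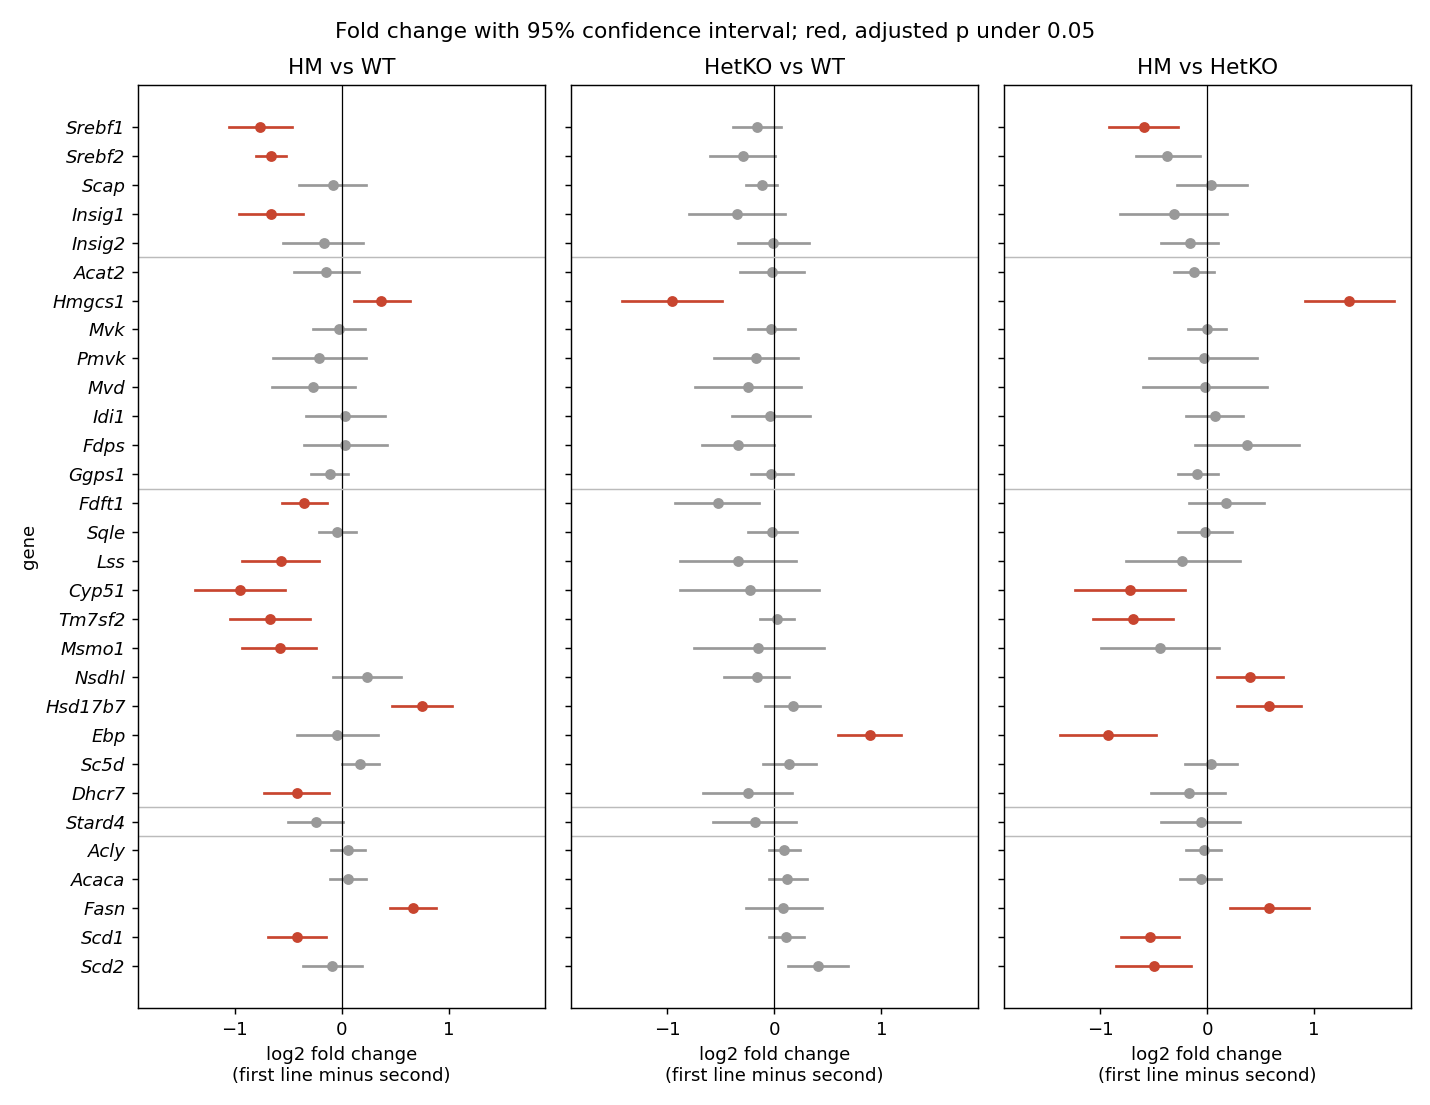
Log2 fold change of log2(TPM + 1) for each of the 30 genes (rows, grouped by role) in HM vs WT, HetKO vs WT and HM vs HetKO; points are estimates, lines are 95% confidence intervals from limma, and red marks an adjusted p under 0.05. Red is found in 13 rows of the first panel, mostly left of 0, in 2 rows of the second and in 10 of the third, with Hmgcs1 on opposite sides of 0 in the first and second panels.

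Srebf1 and Srebf2, the genes of the transcription factors of the system, were both lower in HM. Srebf1 had TPM values of 86.3 (lowest), 103 (median) and 109 (highest) in WT, 72.1, 93.5 and 101 in HetKO, and 44.9, 54.2 and 82.5 in HM. No HM sample reached the WT range, with HM replicates 2 and 3 nearest to them. The log2 fold change was -0.76 ± 0.14 against WT, a 1.69-fold lower level (adjusted p = 0.000618), and -0.59 ± 0.15 against HetKO (adjusted p = 0.00979, 0.151 with pair means).

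Srebf2 had TPM values of 155, 191 and 198 (lowest, median and highest) in WT, 109, 160 and 192 in HetKO and 106, 116 and 123 in HM. The HM samples were tightly grouped below every WT sample, and HetKO was split between replicates 2 and 5, at the HM level, and 4 samples that lay at or within the WT range. The log2 fold change in HM was -0.66 ± 0.07 against WT (1.58-fold lower, adjusted p = 1.23e-05, 0.0117 with pair means). Against HetKO it was -0.37 ± 0.14 and did not pass (adjusted p = 0.0522), but it passed at -0.58 without HetKO replicates 2 and 5 (adjusted p = 0.00014).

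Insig1, itself an SREBP target and the anchor that keeps Scap in the endoplasmic reticulum, had TPM values of 107, 129 and 148 in WT, 61.9, 110 and 156 in HetKO and 66.1, 71 and 112 in HM. In HM only replicate 2, at 112.2 TPM, reached the WT range, followed by replicate 3 at 101.5 TPM, and HetKO spanned from below HM to above WT. It was 1.58-fold lower in HM than in WT (-0.66 ± 0.14, adjusted p = 0.00163). Against HetKO the difference was -0.31 ± 0.23 (adjusted p = 0.313).

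The escort Scap and the second anchor Insig2 did not pass in any of the 3 comparisons. Scap averaged 14.8 ± 0.916 TPM in WT, 13.5 ± 0.934 in HetKO and 14.4 ± 3.92 in HM, where single samples ran from 9.55 to 19.7 TPM. Insig2 averaged 22.3 ± 5.97, 21.6 ± 2.48 and 19.4 ± 4.37 TPM. The intervals of the HM minus WT difference, -0.40 to 0.23 for Scap and -0.55 to 0.20 for Insig2, leave room for changes in either direction. As a group, 3 of the 5 regulators passed in HM vs WT (60%), all lower, with a median of -0.66, where 51.4% of all genes passed and 32% were lower. In HetKO vs WT 0 of 5 passed in limma and 0 had an unadjusted p under 0.05, while the unequal-variance test also called 0, with 1 at an unadjusted p under 0.05.

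**Figure D2:**
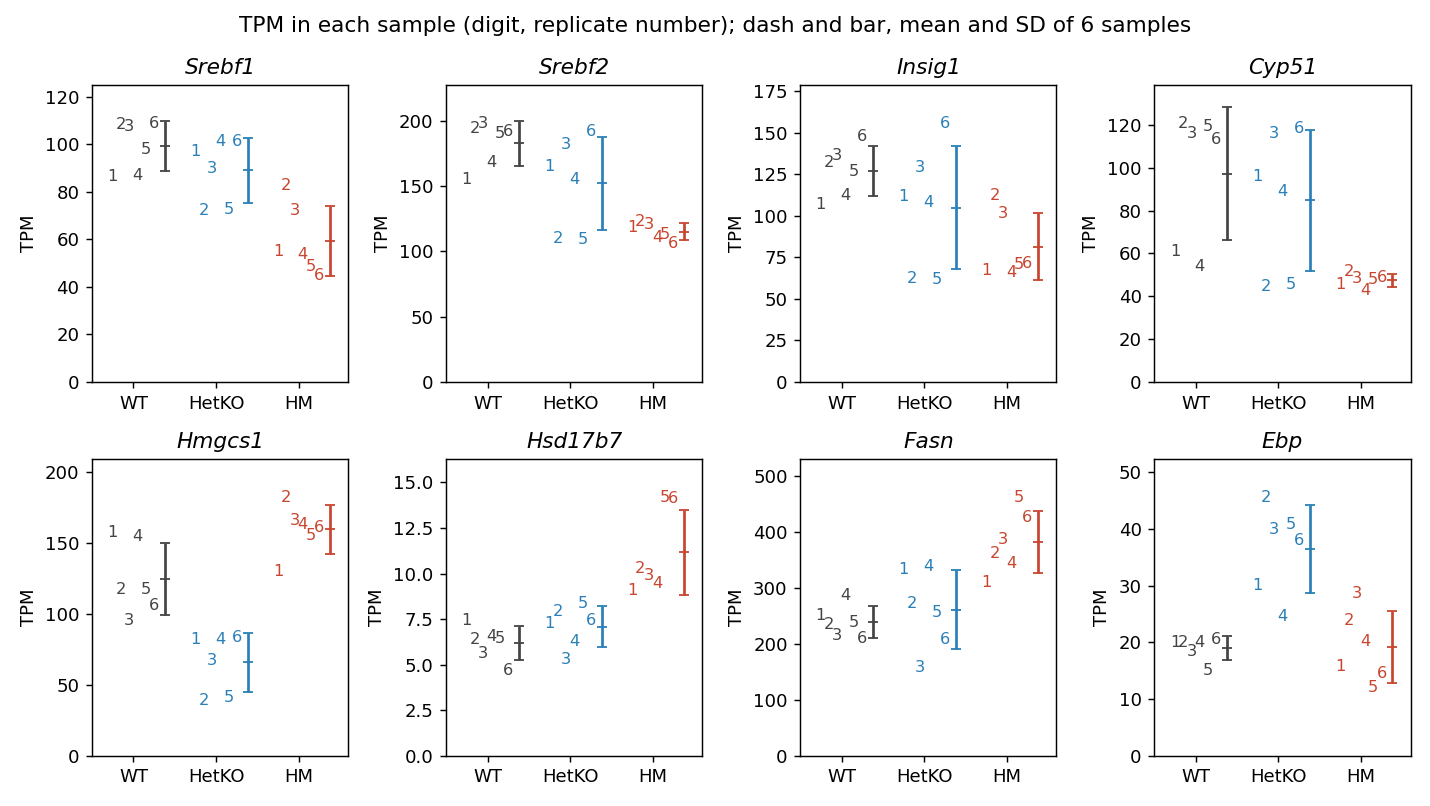
TPM (y axes, from 0) of 8 members in the 18 samples, grouped on the x axis by line; each digit is a sample, printed as its replicate number, and the dash with a bar is the mean ± SD of 6 samples. Srebf1, Srebf2 and Cyp51 lie lower in every HM sample than in every WT sample, Hsd17b7 and Fasn lie higher, Hmgcs1 is lowest in HetKO, and Ebp is highest there.

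Of the 8 enzymes from acetyl-CoA to the isoprenoid diphosphates, 1 passed in each comparison (12.5%). Over all genes 51.4% passed in HM vs WT, 10.2% in HetKO vs WT and 34.6% in HM vs HetKO. Each time the enzyme that passed was Hmgcs1, which condenses acetoacetyl-CoA and acetyl-CoA into HMG-CoA. Its TPM values were 95.3, 117 and 158 in WT, 38.7, 74.4 and 83.7 in HetKO, and 130, 162 and 182 in HM. Every HetKO sample lay below every WT and HM sample, while the upper WT samples, replicates 1 and 4 at 157.5 and 154.6, reached into the HM range.

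The fall of Hmgcs1 in HetKO was 1.94-fold (log2 -0.96 ± 0.21, adjusted p = 0.0139, 0.312 with pair means and 0.0698 without WT replicates 1 and 4). The higher level in HM against WT was 1.29-fold (0.37 ± 0.12, adjusted p = 0.0223), and it did not pass in several alternatives, among them quantile normalization, the unequal-variance test, all 18 samples in a single fit, pair means (adjusted p = 0.129) and the fit without HM replicates 2 and 3 (adjusted p = 0.0902). Between HM and HetKO the difference was 2.51-fold (1.33 ± 0.19, adjusted p = 0.000372), and it passed with pair means too (adjusted p = 0.0423). Hmgcs1 was the only member of the 30 that passed in all 3 comparisons.

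Hmgcs1 lies at chr13:119690379-119708260 near the end of chromosome 13, and the median change of its neighbours had the same sign as its own in each comparison. The 17 other tested genes that start within 5 Mb had a median log2 fold change of 0.29 in HM vs WT, where Hmgcs1 had 0.37. In HetKO vs WT the neighbours' median was -0.18 and Hmgcs1 had -0.96, and in HM vs HetKO the 18 neighbours' median was 0.57 and Hmgcs1 had 1.33. Per sample, the neighbours' median relative to the WT mean was 0.35 and 0.25 in WT replicates 1 and 4 and -0.21 to -0.12 in the other WT samples, -0.37 to -0.06 in HetKO and 0.02 to 0.47 in HM. The WT samples with the highest Hmgcs1 were thus the ones with the highest neighbours. Within HetKO the order was the reverse at the ends. Replicate 2, lowest in Hmgcs1 at 38.7 TPM, had the highest neighbours (-0.06), and replicate 6, highest at 83.7 TPM, had the lowest (-0.37). The part of this region in the Hmgcs1 result was not tested.

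The other 7 enzymes of this stretch were Acat2, the cytosolic thiolase, Mvk and Pmvk, which phosphorylate mevalonate, Mvd, which decarboxylates it, the isomerase Idi1, Fdps, which makes farnesyl diphosphate, and Ggps1, which makes geranylgeranyl diphosphate. Their log2 fold changes ranged from -0.27 (Mvd) to 0.03 (Idi1 and Fdps) in HM vs WT, from -0.34 (Fdps) to -0.02 (Acat2) in HetKO vs WT, and from -0.12 (Acat2) to 0.37 (Fdps) in HM vs HetKO. Their levels were not even within HM. Fdps stood at 539.4 and 539.8 TPM in HM replicates 2 and 3 and at 267.4 to 327.6 TPM in the other 4 HM samples, where WT ran from 305 to 399 TPM. Mvd had 67.7 and 65.7 TPM in these 2 HM samples and 34.3 to 40.6 TPM in the others, and Pmvk 122.8 and 120.1 against 56.8 to 69.6 TPM. Without HM replicates 2 and 3, Pmvk (-0.51, adjusted p = 0.00664), Mvd (-0.54, adjusted p = 0.00269) and Fdps (-0.26, adjusted p = 0.029) passed as lower in HM than in WT. Acat2 has a closely related copy in the mouse, Acat3, so reads may be divided between them.

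The 11 enzymes from squalene formation to cholesterol held 7 of the 13 members that passed in HM vs WT, 6 lower and 1 higher, with a median of -0.35. These are 63.6% of the list beside 51.4% of all genes, and centring each sample on its median made them 3 higher and 4 lower. Fdft1, squalene synthase, opens the route. It had 68.8, 94.8 and 104 TPM in WT, 41.5, 66.8 and 87.8 in HetKO and 66.5, 69.2 and 74.5 in HM. HM values were packed at the lower edge of WT, and HetKO fell still lower in replicates 2 and 5. The HM difference was -0.35 ± 0.10 (adjusted p = 0.0093, 0.105 with pair means) and the HetKO difference of -0.53 ± 0.18 did not pass (adjusted p = 0.0819).

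Sqle, the squalene epoxidase and a known rate-limiting step, had means of 71.7 ± 6.03, 71.2 ± 12 and 69.8 ± 7.56 TPM in WT, HetKO and HM. Its difference between HM and WT had a 95% interval of -0.21 to 0.13. Lss, which closes the epoxide into lanosterol, had 66.2, 102 and 105 TPM in WT, 39.1, 78.4 and 120 in HetKO and 45.3, 57.3 and 83.7 in HM. The lines overlapped because WT replicates 1 and 4, at 66.6 and 66.2 TPM, were low and HM replicate 2 was high. The difference was -0.57 ± 0.17 in HM vs WT (1.48-fold lower, adjusted p = 0.0115, 0.0984 with pair means).

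Cyp51, the lanosterol demethylase, had the largest point estimate of the 30 in HM vs WT. It had 54, 115 and 121 TPM in WT, 44.5, 92.3 and 118 in HetKO and 42.6, 48 and 51.8 in HM. The HM samples lay within 42.6 to 51.8 TPM, just below WT replicates 1 and 4 at 61 and 54 TPM and far below the other 4 WT samples at 113 to 120.6 TPM. The log2 fold change was -0.95 ± 0.20 (1.93-fold lower, adjusted p = 0.0015, 0.0419 with pair means), and -1.29 without WT replicates 1 and 4 (adjusted p = 1.72e-07). Against HetKO it was -0.72 ± 0.23 (adjusted p = 0.0314), and -1.12 without HetKO replicates 2 and 5, which were themselves at 44.5 and 45.4 TPM.

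Tm7sf2, a sterol reductase that acts after Cyp51, was even in WT and HetKO and low in HM. It had 19.8, 22.8 and 24.4 TPM in WT, 21.1, 22.4 and 26 in HetKO and 8.09, 15.4 and 19.9 in HM. Every HM sample lay below every HetKO sample, and only HM replicate 2 touched the WT range. The difference was -0.67 ± 0.17 against WT (1.59-fold lower, adjusted p = 0.00557, 0.0705 with pair means) and -0.69 ± 0.17 against HetKO (adjusted p = 0.0094, 0.145 with pair means).

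Msmo1, which oxidises the methyl groups at carbon 4 of the sterol ring, had 73.1, 116 and 128 TPM in WT, 49.9, 117 and 141 in HetKO and 56.3, 65.9 and 85.3 in HM. HM lay with the low pair of WT samples, and HetKO reached from below HM to above WT. It was 1.5-fold lower in HM than in WT (-0.58 ± 0.16, adjusted p = 0.00805, 0.0843 with pair means). Dhcr7, the last reductase of one branch of the route, had 79.2, 125 and 135 TPM in WT, 61.7, 103 and 125 in HetKO and 70, 81 and 101 in HM. Its difference was -0.42 ± 0.14 in HM vs WT (1.34-fold lower, adjusted p = 0.0237, 0.14 with pair means), with the low WT pair again inside the HM range.

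Hsd17b7, a reductase that completes the removal of the methyl groups, rose in HM, opposite to the other enzymes of the route that passed against WT. Nsdhl (0.24) and Sc5d (0.17) also had estimates above 0 against WT but did not pass, and the remaining enzymes of the route had estimates below 0. It had 4.67, 6.42 and 7.4 TPM in WT, 5.27, 7.34 and 8.35 in HetKO and 9.06, 10.1 and 14.2 in HM. All HM samples lay above all WT and HetKO samples, with HM replicates 5 and 6 highest. The rise was 1.68-fold against WT (0.75 ± 0.13, adjusted p = 0.000493, 0.0321 with pair means) and 1.5-fold against HetKO (0.58 ± 0.14, adjusted p = 0.00685, 0.143 with pair means). It was also the least abundant of the 30, so these log2 values, taken on TPM + 1, understate the ratio.

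Ebp, the sterol isomerase, was the member that rose in HetKO. It had 15, 19.9 and 20.6 TPM in WT, 24.6, 39 and 45.6 in HetKO and 12, 18 and 28.6 in HM. The 6 HetKO samples lay above the 6 WT samples, while HM straddled WT. The rise was 1.85-fold (0.89 ± 0.14, adjusted p = 0.00143, 0.135 with pair means), and HM against WT gave -0.04 ± 0.18 (adjusted p = 0.869). HM was 1.9-fold lower than HetKO (-0.93 ± 0.20, adjusted p = 0.00478, 0.112 with pair means). The 40 genes tested within 2 Mb of Ebp had medians of 0.17 in HetKO vs WT and -0.42 in HM vs HetKO, and their part in the Ebp result was not tested.

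Nsdhl, the dehydrogenase that acts with Msmo1, averaged 43.7 ± 7.99 TPM in WT, 38.9 ± 6.8 in HetKO and 51.8 ± 10.2 in HM. It passed only in HM vs HetKO (0.40 ± 0.14, adjusted p = 0.0477), and did not pass there without HetKO replicates 2 and 5 or without HM replicates 2 and 3 (adjusted p = 0.169 and 0.199). Sc5d, the desaturase of the same stretch, had means of 28.2 ± 2.99, 31.4 ± 5.74 and 31.9 ± 2.72 TPM and 0.17 ± 0.08 in HM vs WT (adjusted p = 0.0831). Stard4, which carries cholesterol between membranes, averaged 30.3 ± 5.03 TPM in WT, 27.2 ± 7.38 in HetKO and 25.3 ± 3.54 in HM. Its HM minus WT difference of -0.24 ± 0.12 did not pass (adjusted p = 0.1).

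Among the 5 enzymes of fatty acid synthesis, Fasn rose and Scd1 fell in HM. Fasn, the fatty acid synthase itself, had 210, 237 and 287 TPM in WT, 158, 264 and 339 in HetKO and 309, 375 and 462 in HM. Every HM sample exceeded every WT sample, and HetKO replicates 1 and 4 reached into the HM range. The rise was 1.59-fold against WT (0.67 ± 0.10, adjusted p = 0.000176, 0.0192 with pair means) and 1.5-fold against HetKO (0.58 ± 0.17, adjusted p = 0.0204, 0.177 with pair means).

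The enzymes that feed Fasn did not pass in any comparison. Acly, which makes cytosolic acetyl-CoA from citrate, averaged 231 ± 16.9 TPM in WT, 247 ± 20.5 in HetKO and 242 ± 24.7 in HM. Acaca, which makes malonyl-CoA, averaged 58.7 ± 4.68, 64.1 ± 7.02 and 61.3 ± 6.1 TPM. Their HM minus WT differences had intervals of -0.10 to 0.22 and -0.11 to 0.23, which do not reach the 0.67 of Fasn.

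Scd1 and Scd2 insert the double bond of oleate and are close paralogues that lie beside each other on chromosome 19, so some reads may be assigned to either. Scd1 had 95.7, 119 and 126 TPM in WT, 111, 125 and 137 in HetKO and 66.1, 78.9 and 114 in HM. HM replicates 2 and 3 sat inside the WT range and the other 4 HM samples below it. The difference was -0.42 ± 0.13 against WT (1.33-fold lower, adjusted p = 0.0137, 0.111 with pair means) and -0.53 ± 0.12 against HetKO (adjusted p = 0.00632). Scd2 averaged 383 ± 36.4 TPM in WT, 518 ± 115 in HetKO and 367 ± 83.2 in HM. HetKO replicates 2 and 5 held the highest Scd2 values, 647 and 664.2 TPM. It was lower in HM than in HetKO (-0.50 ± 0.16, adjusted p = 0.0321) and did not pass in HetKO vs WT (0.41 ± 0.13, adjusted p = 0.0598).

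Within a line, many of the members were lowest in the same samples. Of the 30 members, 21 (70%) had their 2 lowest WT values in replicates 1 and 4, as did 33% of the 13955 genes that averaged 1 TPM or more, among them Srebf1, Srebf2, Insig1, Fdft1, Sqle, Lss, Cyp51, Msmo1 and Dhcr7. In HetKO, 21 of 30 had their 2 lowest values in replicates 2 and 5 (70%, against 35.4% of all genes), and in HM 17 of 30 in replicates 1 and 4 (56.7%, against 14.9%). Hmgcs1, Hsd17b7 and Fasn, the genes that rose in HM, were the 3 members lowest in WT replicates 3 and 6. Hmgcs1, Hsd17b7, Fasn and Tm7sf2 had their highest WT values in replicates 1 and 4, where most others had their lowest. In HetKO, Ebp, Scd1 and Scd2 were lowest in replicates 1 and 4 instead. These counts rest on pairs that resembled each other over all genes.

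The median SD of log2(TPM + 1) between the 6 samples of a line was 0.185 over the members in WT, 0.290 in HetKO and 0.226 in HM, where the 6164 genes that averaged 20 TPM or more had 0.116, 0.169 and 0.155. The sterol steps had 0.252 (mevalonate and isoprenoid) and 0.249 (squalene to cholesterol) in WT and 0.320 and 0.322 in HetKO, where the fatty acid genes had 0.140 and 0.158. In HM the order was another: the sterol steps had 0.200 and 0.215, the fatty acid genes 0.210 and the regulators 0.330. The mean level of the 8 mevalonate and isoprenoid genes, relative to the WT mean, was -0.62 and -0.58 in HetKO replicates 2 and 5 and -0.14 to 0.09 in the other HetKO samples. The mean of the 11 squalene to cholesterol genes was -0.41 and -0.40 in these 2 samples and 0.05 to 0.30 in the other 4.

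**Figure D3:**
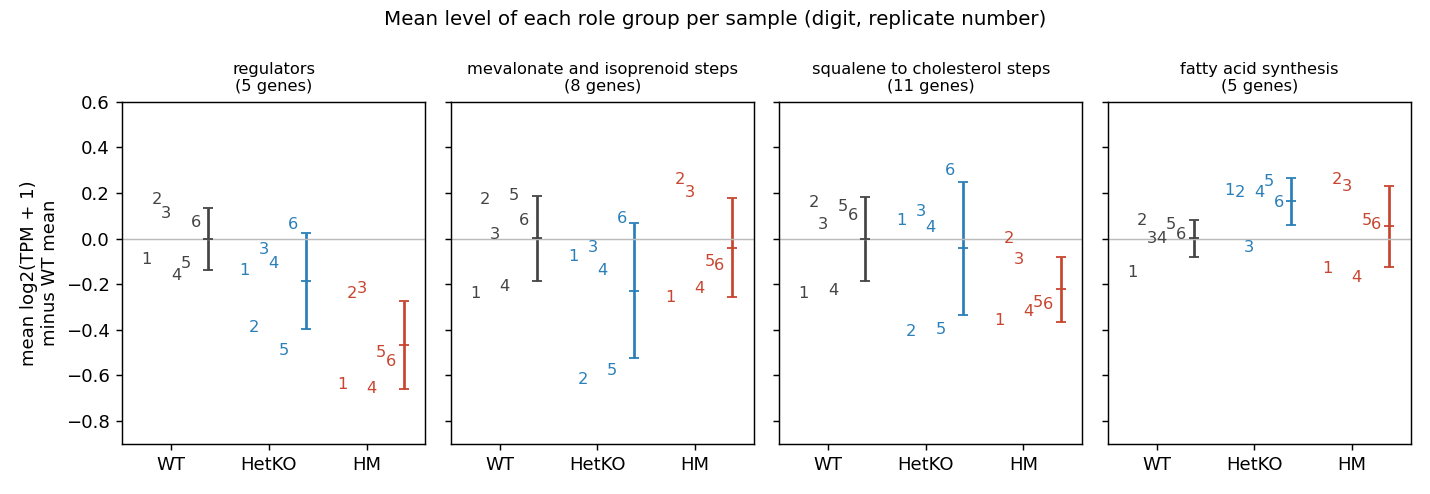
Mean of log2(TPM + 1) over the genes of a role group, relative to the WT mean (y axis), in each sample (digits are replicate numbers, grouped by line on the x axis), with the mean ± SD of 6 samples. HetKO replicates 2 and 5 lie lowest in the mevalonate and squalene panels, at -0.62 to -0.40, HM replicates 2 and 3 lie highest within HM in every panel, and the regulators lie lower in HM (mean -0.47) than in WT.

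The differences between lines were also fitted without the samples that stood apart. HM replicates 2 and 3 were the highest HM samples in every role group and WT replicates 1 and 4 the lowest WT pair for 21 of the 30 members, so leaving out either pair tends to widen a fall in HM by construction, and a fall that passes there is no sign of stability. Without HM replicates 2 and 3, 17 members passed in HM vs WT, 2 higher and 15 lower, beside 7443 of all 14043 genes tested, 2733 higher and 4710 lower. Without WT replicates 1 and 4, a setting chosen after the values were seen, 16 passed, 3 higher and 13 lower. Over all genes 7431 passed in that setting, 2701 higher and 4730 lower. Hmgcs1 passed without the WT pair (0.55, adjusted p = 0.000709) and not without the HM pair. In HetKO vs WT, leaving out HetKO replicates 2 and 5 moved the members' median from -0.08 to 0.06, and Hmgcs1 and Ebp still passed (adjusted p = 0.0204 and 0.00661). In HM vs HetKO the same omission, which removes the HetKO samples lowest in most sterol genes, gave 14 members, 3 higher and 11 lower. Srebf2, Insig1, Lss, Msmo1, Dhcr7 and Stard4 were added on the lower side, and Nsdhl and Scd2 no longer passed. Over all 13762 genes tested, the calls rose from 4765 to 6447 with this omission, 2560 higher and 3887 lower, so the gain was not particular to the members.

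**Figure D4:**
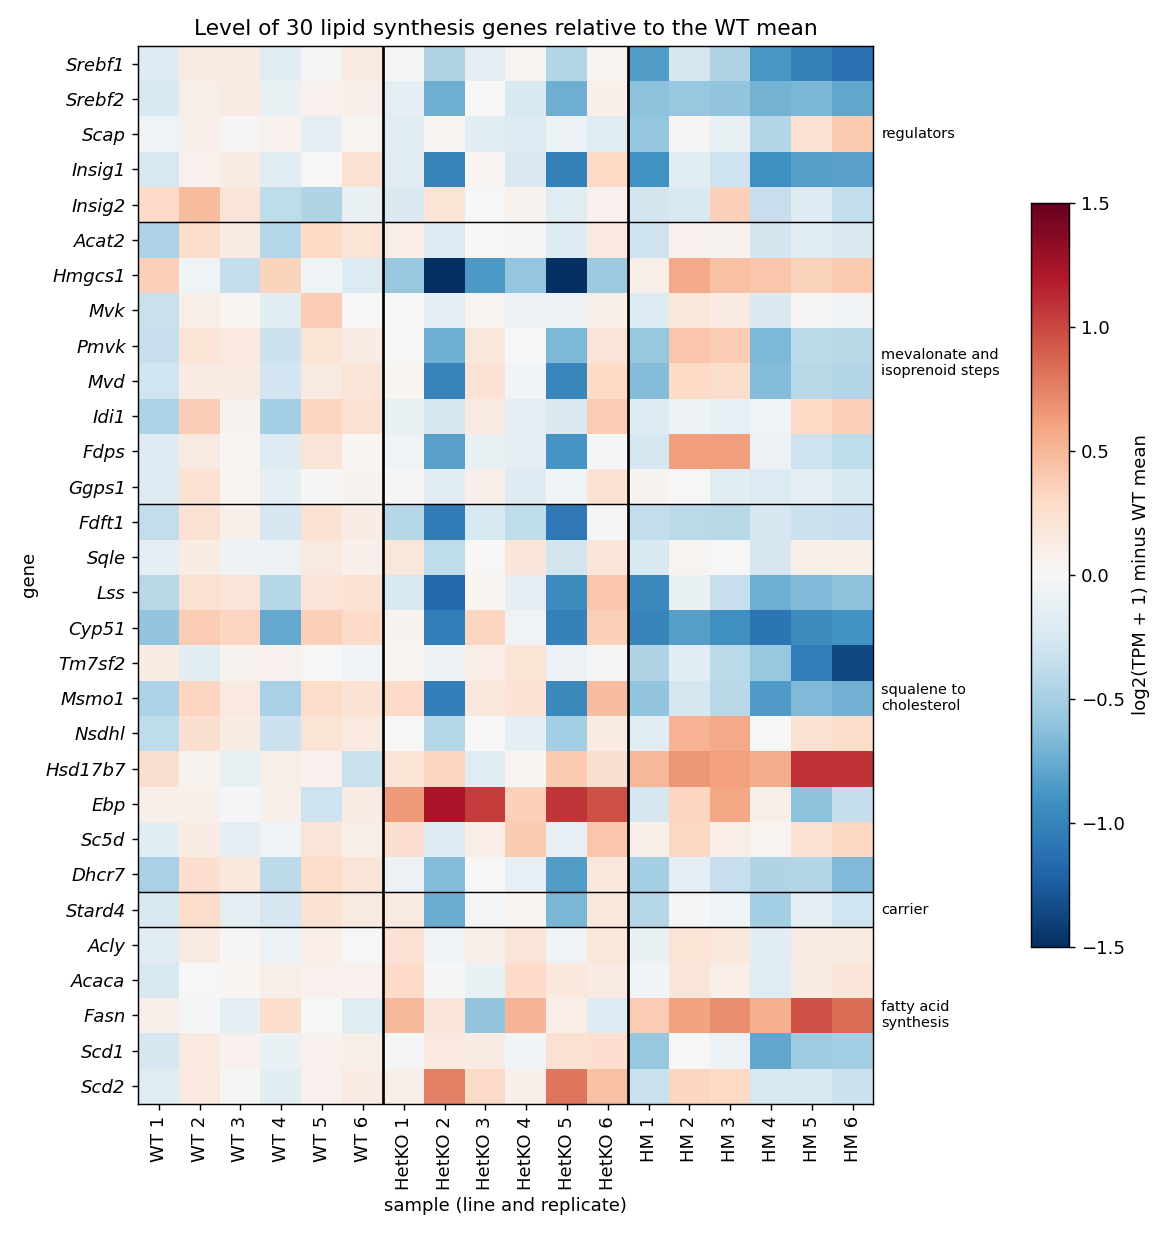
Level of the 30 genes (rows, grouped by role) in the 18 samples (columns, ordered by line), as log2(TPM + 1) minus the WT mean of the gene; blue is lower and red higher, and the scale ends at -1.5 and 1.5. The columns of WT replicates 1 and 4 and of HetKO replicates 2 and 5 are blue over most sterol rows, the HM columns are blue for Srebf1, Srebf2, Insig1, Lss, Cyp51 and Msmo1, and the rows of Hsd17b7 and Fasn are red in HM.

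The other members were set beside their chromosomal neighbours in the same way. The median log2 fold change of tested genes within 5 Mb lay between -0.24 and 0.10 for the other 29 members in HM vs WT. Cyp51 had -0.95 beside neighbours at -0.09, Srebf1 -0.76 beside 0.01 and Tm7sf2 -0.67 beside -0.08. Hsd17b7 and Fasn rose among neighbours at -0.21 and -0.15. For Srebf2 the 127 neighbours stood at -0.24 and the 56 within 2 Mb at -0.02. Ebp, on the X chromosome, had 0.89 in HetKO vs WT beside 54 neighbours at 0.08.

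**Figure D5:**
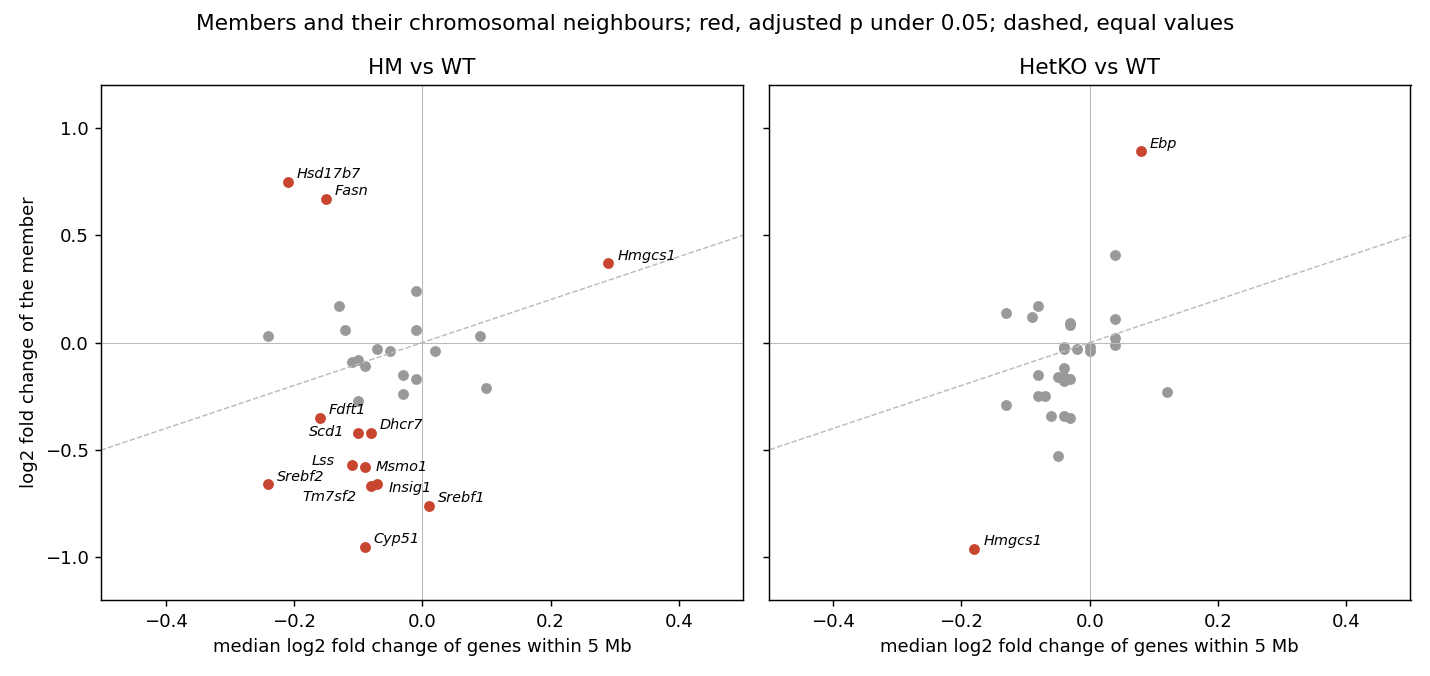
Log2 fold change of each member (y axis) against the median log2 fold change of the other tested genes that start within 5 Mb (x axis), for HM vs WT and HetKO vs WT; red points passed an adjusted p of 0.05 and the dashed line marks equal values. Hmgcs1 lies near the dashed line in HM vs WT (0.37 beside 0.29) and away from it in HetKO vs WT (-0.96 beside -0.18), and in HM vs WT Cyp51, Srebf1 and Tm7sf2 lie well below the line and Hsd17b7 and Fasn well above it.

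Lipid genes outside the 30 were listed by role, 80 in all, of which 79 were in the table and 73 were tested. In HM vs WT 45 of the 73 passed (61.6%), 13 higher and 32 lower, with a median of -0.16, beside 51.4% of all genes, 19.4% higher and 32% lower, and their median of -0.09. After centring on the sample median the calls among these genes were 24 higher and 25 lower, so their direction depended on the scale. Lbr, a sterol reductase of the inner nuclear membrane, averaged 92 ± 6.1 TPM in WT, 86.6 ± 2.83 in HetKO and 90.3 ± 5.07 in HM and did not pass in HM vs WT (-0.03 ± 0.06, adjusted p = 0.714). It was named after its values were seen.

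Genes that take up, move and export sterols passed in 9 of 14 cases in HM vs WT, 8 lower and 1 higher, with a median of -0.38, where 51.4% of all genes passed and 32% were lower. Centring gave 7 lower and 3 higher. Scarb1, the HDL receptor, had 51.6, 77.4 and 81.3 TPM in WT, 41.2, 69.6 and 86 in HetKO and 28.6, 30 and 46.7 in HM. Every HM sample lay below every WT sample, and the low HetKO samples were replicates 2 and 5, as for the sterol enzymes. Scarb1 was lower in HM by -1.01 on the log2 scale against WT (adjusted p = 0.000225) and by -0.88 against HetKO (adjusted p = 0.0054). Apoe, the lipoprotein component, averaged 326 ± 32.4 TPM in WT, 223 ± 60.7 in HetKO and 179 ± 62.2 in HM. It was lower in HM (-0.93, adjusted p = 0.00145) and in HetKO (-0.59, adjusted p = 0.0385) than in WT.

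Of 9 genes listed under SREBP cleavage and turnover, 4 passed in HM vs WT (44.4%, against 51.4% of all genes). Of these 4, 3 were higher and 1 lower (5 higher and 1 lower after centring). The list also holds Pgrmc1 and Hdlbp, and Pgrmc1 is among the higher ones. The lower one was Mbtps1, the site-1 protease that makes the first cut of SREBP in the Golgi (-0.41, adjusted p = 3.82e-05), named after its values were seen. Pgrmc1, a haem-binding membrane protein known to bind Cyp51, averaged 65.7 ± 1.54 TPM in WT, 89.9 ± 13.5 in HetKO and 84.3 ± 4.45 in HM. It rose in HM (0.35, adjusted p = 6.22e-05) and in HetKO (0.43, adjusted p = 0.00849) against WT. Of 12 genes that use isoprenoids, 7 passed (58.3%), 4 higher and 3 lower (5 higher and 1 lower after centring). Over all genes 19.4% passed as higher and 32% as lower in HM. Coq2, which joins the isoprenoid tail to ubiquinone, fell from 20.5 ± 1.76 TPM in WT to 15.7 ± 2.87 in HetKO and 12.5 ± 2.03 in HM (adjusted p = 0.0424 and 0.000161).

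Of 21 tested fatty acid genes of synthesis, elongation and desaturation outside the members, 14 passed in HM vs WT (66.7%, against 51.4% of all genes), 11 lower and 3 higher. After centring they were 9 lower and 8 higher. Of 16 genes of fatty acid oxidation 11 passed (68.8%), 9 lower and 2 higher, and 7 lower and 2 higher after centring. Lpin1, which makes diacylglycerol, averaged 16 ± 2.28 TPM in WT, 17.1 ± 5.08 in HetKO and 8.2 ± 2.45 in HM (-0.92 in HM vs WT, adjusted p = 0.000541). Acadvl, which opens the oxidation of very long chains, averaged 26.1 ± 1.98, 21 ± 2.25 and 12.6 ± 2.48 TPM (-1.01, adjusted p = 3.09e-05). Cpt1a, which brings acyl groups into mitochondria, averaged 5.51 ± 1.34, 5.41 ± 2.67 and 2.33 ± 0.955 TPM (-0.99, adjusted p = 0.00117). In HM vs HetKO 33 of the 73 lipid genes outside the members passed (45.2%, against 34.6% of all genes), 9 higher and 24 lower, and in HetKO vs WT 6 of 73 did (8.22%, against 10.2%), Pgrmc1 and Fads2 higher and Apoe, Coq2, Gpam and Acadvl lower. With the means of alike pairs these counts were 23 for HM vs WT, 3 for HM vs HetKO and 0 for HetKO vs WT in limma, with 6 at an unadjusted p under 0.05 in the last. Over all genes pair means called 3414 of 14043, 454 of 13762 and 35 of 13999 in the same order.

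The RNase IIIb domain of Dicer frees the 5p strand of a microRNA from its hairpin, and the study examined the 3p strands that are left. The seeds of 4 microRNAs that it names were matched to the members' 3′ UTRs. The mature sequences are RefSeq entries (GRCm38.p6), with the seed (bases 2 to 8) in capitals. miR-17-3p and miR-20b-3p share a seed.
mmu-miR-7a-1-3p, chr13:58392800-58392821, minus strand: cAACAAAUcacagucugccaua
mmu-miR-15b-3p, chr3:69009813-69009834, plus strand: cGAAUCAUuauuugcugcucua
mmu-miR-17-3p, chr14:115043721-115043742, plus strand: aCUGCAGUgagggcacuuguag
mmu-miR-20b-3p, chrX:52742122-52742143, minus strand: aCUGCAGUgugagcacuucuag

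A match to at least 1 of these seeds was present in the longest annotated 3′ UTR of 9 of the 30 members (30%), against 4553 of 12113 tested genes (37.6%), and the members' UTRs were somewhat longer (median 1569 bases against 1355). The site of the shared miR-17-3p and miR-20b-3p seed, ACTGCAG, was found in Hmgcs1, Fdft1, Msmo1, Hsd17b7, Fasn and Scd1. That of miR-7a-1-3p, ATTTGTT, was found in Idi1, Sc5d, Scd1 and Scd2, and that of miR-15b-3p, ATGATTC, in Fasn and Scd2. The 9 members with a site had a median HM minus WT change of 0.03, with 3 higher and 3 lower among those that passed. The 21 without a site had a median of -0.17, with 7 passing, all lower. Over all genes tested in HM vs WT, 51.4% passed, 19.4% higher and 32% lower. All genes were not split by site, so the part of these sites was not tested. The ACTGCAG site was carried by Hmgcs1, Hsd17b7 and Fasn, which rose in HM, and also by Fdft1, Msmo1 and Scd1, which fell. Srebf2 is also the host of miR-33, which lies at chr15:82198127-82198188 inside the gene and outside the exons of its coding transcripts, and no microRNA was measured in these samples.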

How the data were processed

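Messenger RNA of 18 samples, 6 per line, was sequenced by the authors after TRIzol extraction and a stranded, paired-end Illumina library. The deposited table holds TPM per gene (55450 genes, 999999 to 1000000 TPM per sample). Per the study's methods the authors used BBMerge and RSEM, and the submitters' processing notes list cutadapt, STAR and mm10; tool versions are not given in the sources used here. TPM keeps no counts, so depth is unknown and no counting interval is given, and paralogues or overlapping genes may share estimated reads. All columns of per-sample values were used. All identifiers matched GENCODE M21 (GRCm38).

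The members and lists were chosen with earlier results of these data known. The log2(TPM + 1) values entered limma 3.58.1, run in R 4.3.3 (trended prior, two-sided, genes averaging 1 TPM or more across the 12 samples compared, Benjamini-Hochberg adjustment over all genes tested, threshold 0.05), separately for HM vs WT, HetKO vs WT and HM vs HetKO, after the script was tested on simulated data. Fold changes on this scale understate those of low genes. Tables and figures were made with Python 3.11.15, pandas 2.3.3 and matplotlib 3.10.9. Named genes were all 30 members, the 5 other lipid genes with the largest change that passed in HM vs WT and the 3 in HetKO vs WT, and Dicer1; Mbtps1 and the single genes of small counts were named after their values were seen. Faxdc2 was not analysed here. Some lipid genes are not reported here and were left out of the lists and their counts. Promoters and microRNAs are RefSeq entries (GRCm38.p6), and the 6 promoters printed were chosen after the fits. Seed matches were sought in the longest annotated 3′ UTR. Alternatives covered the pseudocount (0.1), the filter (none, or a mean of 5 TPM), centring on the sample median, quantile normalization, a single fit of all 18 samples, an unequal-variance test, a limit of 1.5-fold, a replicate block, means of alike sample pairs, and leaving out HetKO replicates 2 and 5 or HM replicates 2 and 3. Leaving out WT replicates 1 and 4 was added after the data were seen.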

Additional observations from a re-analysis of the deposited data

Results flagged for a closer look

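Of 90 groups of 6 values (30 genes in 3 lines), 3 held a sample set apart from the rest by more than Dixon's 95% limit. For 6 independent values chance gives about 1 in 20 groups, or 4.5, but the samples came in alike pairs, so that number is not a fair yardstick here. Insig2 was 28.15 TPM in HM replicate 3, and the other HM samples ran from 16.57 to 18.86 TPM (ratio of gap to range 0.758). Ebp was 15.02 TPM in WT replicate 5, with the other WT samples at 18.43 to 20.57 TPM (0.649). Acaca was 49.45 TPM in WT replicate 1, with the others at 58.65 to 62.00 TPM (0.754).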

How the results depend on the processing

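Of 1219 values recomputed under the alternatives, 1065 kept their direction and side of the threshold, 72 lost a call, 28 gained one and 54 changed sign. Requiring at least 1.5-fold left 7 members in HM vs WT and 5 in HM vs HetKO, and 19, 1 and 17 of the other lipid genes in HM vs WT, HetKO vs WT and HM vs HetKO. Means of alike sample pairs left 6, 0 and 1 members and 23, 0 and 3 other genes in the same order, with 2 members and 6 other genes of HetKO vs WT at an unadjusted p under 0.05. Each line then has 3 values in place of 6. The unequal-variance test called 1 member and 3 other genes in HetKO vs WT and 6 members in HM vs HetKO, and without WT replicates 1 and 4 HetKO vs WT called 1 member. Over all genes, pair means called 3414, 35 and 454, the 1.5-fold limit 3008, 666 and 2099, and the unequal-variance test 852 in HetKO vs WT. Of the calls over all genes, centring moved the share higher from 36.5% to 50.7% in HetKO vs WT and from 40.4% to 60.9% in HM vs HetKO (48.1% and 49.3% after quantile normalization). The cause of these shifts was not tested.

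Replicate numbers did not pair the samples: same-numbered samples had mean correlations of 0.00338 (HM and WT), 0.0623 (HetKO and WT) and 0.0194 (HM and HetKO), from -0.168 to 0.165. A fit with a replicate block called 15, 3 and 9 members, and Hmgcs1 in HM vs WT and Nsdhl in HM vs HetKO no longer passed in it.

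The log2 fold changes that changed sign were as follows, and of these Fdps without HM replicates 2 and 3 passed the threshold. With centring on the sample median, HM vs WT gave Scap 0.10, Insig2 0.00, Acat2 0.03, Mvk 0.15, Ggps1 0.06, Sqle 0.14, Ebp 0.14 and Scd2 0.09. With centring on the sample median, HetKO vs WT gave Insig2 0.05, Acat2 0.03, Mvk 0.02, Idi1 0.02, Ggps1 0.03 and Sqle 0.03. With centring on the sample median, HM vs HetKO gave Pmvk 0.08, Mvd 0.10, Ggps1 0.03, Sqle 0.10, Stard4 0.06, Acly 0.08, Acaca 0.05 and Pgrmc1 0.04. With quantile normalization, HM vs WT gave Scap 0.09, Mvk 0.06, Idi1 -0.06, Fdps -0.11, Ebp 0.12 and Acly -0.07. With quantile normalization, HetKO vs WT gave Insig2 0.02 and Cpt1a 0.05. Without HetKO replicates 2 and 5, HetKO vs WT gave Acat2 0.07, Mvk 0.01, Pmvk 0.09, Mvd 0.13, Idi1 0.06, Ggps1 0.02, Sqle 0.13, Lss 0.02, Cyp51 0.17, Msmo1 0.28, Stard4 0.08, Scarb1 0.15 and Cpt1a 0.25. Without HetKO replicates 2 and 5, HM vs HetKO gave Mvk -0.04, Idi1 -0.03, Fdft1 -0.08, Sc5d -0.12 and Pgrmc1 0.03. Without HM replicates 2 and 3, HM vs WT gave Fdps -0.26 and Acly -0.00. Without HM replicates 2 and 3, HM vs HetKO gave Mvk -0.08. Without WT replicates 1 and 4, HM vs WT gave Idi1 -0.21 and Fdps -0.06. Without WT replicates 1 and 4, HetKO vs WT gave Lpin1 -0.02. Of the neighbours' medians in HM vs WT, narrowing the window to 2 Mb gave -0.02 for Srebf2, 0.13 for Insig1, 0.03 for Dhcr7 and -0.04 for Fasn. Depth cannot be read from TPM, so limits set by counting were not computed.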
